A study of Sus scrofa with 9 samples.

Results

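The genes described here encode the enzymes that turn arachidonic acid into leukotrienes and prostanoids. They were chosen by name, and 9 of the 10 named genes (ALOX5, ALOX5AP, LTA4H, LTC4S, PTGS1, PTGS2, PTGIS, TBXAS1 and PTGES) matched 1 entry each among the 21357 genes of the expression table. PTGDS was not analysed here. The 9 libraries are poly(A) RNA-seq profiles of vessel taken where the abdominal aorta ends, from male minipigs of the Tibetan breed, and the labels name no genetic change in any animal. The NC group (normal control) ate a normal diet for 24 weeks, the H8 group (labelled hypercholesterolemia) a high-fat diet for 8 weeks, and the H24 group (labelled atherosclerosis) a high-fat diet for 24 weeks, with 3 pigs in each. The high-fat feed of the study was basal feed with added shortening, cholesterol and egg yolk powder. According to the methods of the study the pigs were 3 to 4 months old when bought and had 4 weeks to settle in, and the NC and H24 pigs were picked from diet groups of 5. There was no 8-week group on the normal diet, so in H8/NC the diet and the age of the animals cannot be told apart.

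Eicosanoid synthesis starts when phospholipases free arachidonic acid from membranes. In the leukotriene branch, ALOX5 (5-lipoxygenase), helped by the membrane protein ALOX5AP, makes leukotriene A4, which LTA4H turns into leukotriene B4, an attractant for leukocytes, and LTC4S turns into leukotriene C4, the parent of the cysteinyl leukotrienes that contract smooth muscle and make vessels leak. In the prostanoid branch, PTGS1 and PTGS2 (the constitutive and the inducible cyclooxygenase) make prostaglandin H2, from which PTGIS makes prostacyclin, TBXAS1 makes thromboxane and PTGES makes prostaglandin E2. Prostacyclin relaxes arteries and restrains platelets, and thromboxane does the opposite. In arteries, PTGIS is a gene of smooth muscle and endothelium, whereas ALOX5, ALOX5AP and LTC4S are best known from leukocytes.

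The libraries held between 44094263 and 75787978 estimated counts. Aortic smooth muscle markers (ACTA2, MYH11, TAGLN, CNN1, SMTN and MYOCD) summed to between 1670 and 13000 FPKM, and endothelial markers to between 35.3 and 151 FPKM, so both cell types of the vessel wall were present in every library. H24 replicate 3 stood apart from its group: its correlation across genes was 0.887 with H24 replicate 1 and 0.85 with H24 replicate 2, against 0.937 to 0.964 for the other pairs within a group. It also had the lowest smooth muscle sum (1670 FPKM) and the highest sum of the 8 myeloid markers (1450 FPKM). Fold changes that its removal moved past the threshold are given with and without it.

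In the normal aorta, prostacyclin synthase was by far the most abundant of these mRNAs. PTGIS (chr17:51153155-51200273, minus strand, Sscrofa11.1, as are all positions given) measured 155, 134 and 130 FPKM, a level scaled to transcript length and depth, in the 3 NC libraries. LTA4H (chr5:87486713-87518357, plus strand) came next at 29.2, 22.3 and 25.2 FPKM, and ALOX5AP (chr11:7411644-7438108, plus strand) followed at 10.2, 10.7 and 8.06 FPKM. These 3 ranks did not overlap. LTC4S, PTGES, PTGS2 and PTGS1 had NC means between 2.05 and 3.49 FPKM, and each overlapped its neighbour in that order. ALOX5 (chr14:90858987-90907082, minus strand) was low, with a mean of 0.648 ± 0.148 FPKM (SD, n = 3), and TBXAS1 (chr18:9717226-9886737, minus strand) was lowest at 0.229 ± 0.037 FPKM (SD, n = 3). The abundant enzymes of the normal wall were thus PTGIS and LTA4H, whereas the mRNA for ALOX5, which makes the substrate of LTA4H, was among the scarcest. At H8 the top 3 kept this order of means (87.1 for PTGIS, 29.4 for LTA4H and 10.0 FPKM for ALOX5AP). At H24 PTGIS still had the highest mean, 84.1 ± 35.6 FPKM (SD, n = 3), but every gene overlapped the next in the order.

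**Figure D1:**
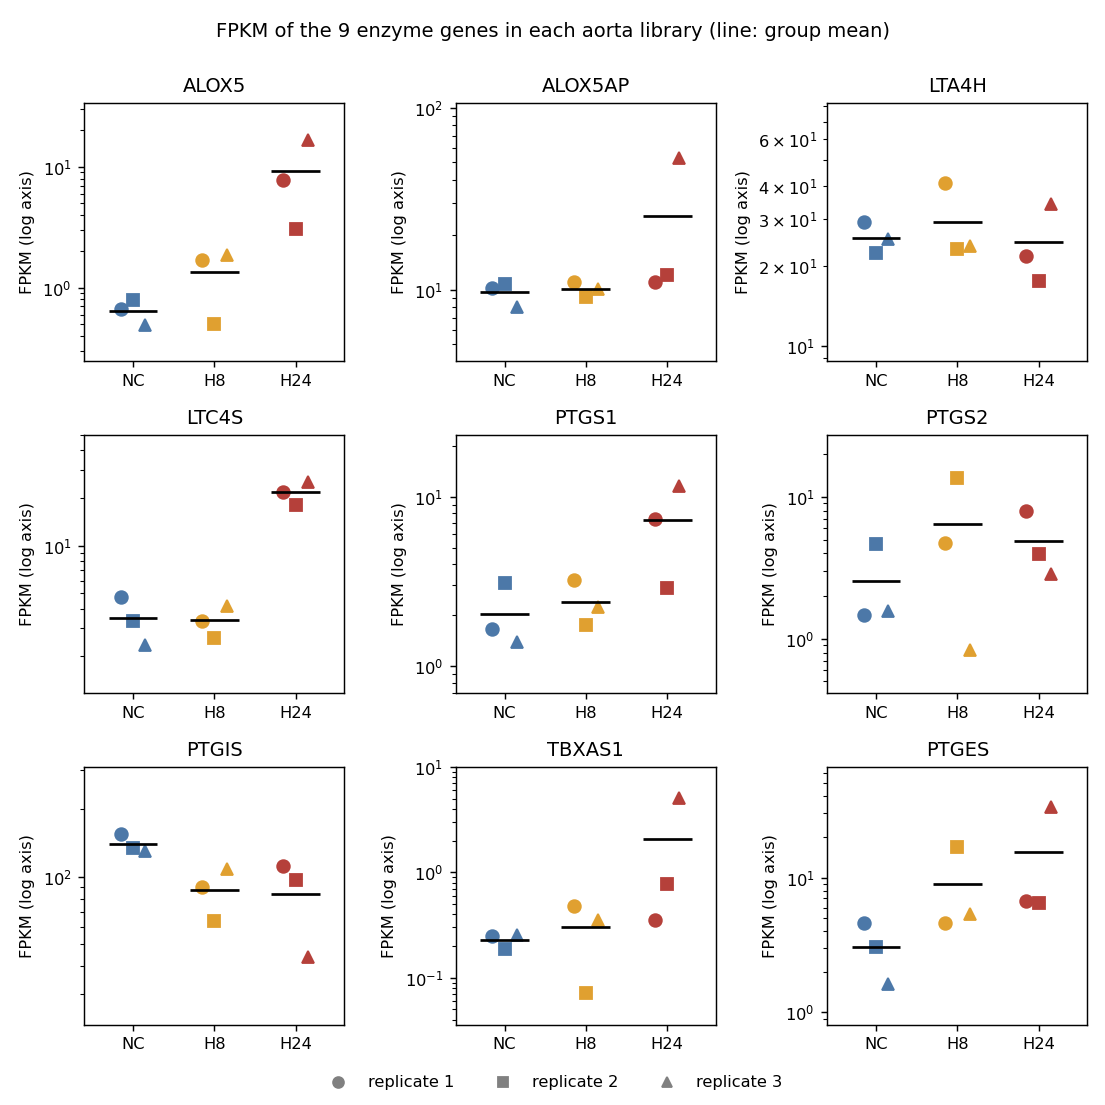
FPKM (vertical log axes) of each of the 9 enzyme genes in the NC, H8 and H24 libraries, with a symbol per replicate and a line at the group mean. The 3 H24 libraries lie above all other libraries for ALOX5 (3.05 to 16.8 FPKM) and LTC4S (18.2 to 25.1 FPKM), whereas for TBXAS1, PTGES and ALOX5AP the H24 mean is drawn up by replicate 3.

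The H24/NC comparison asks what differs in the atherosclerotic aorta. ALOX5, LTC4S, PTGS1, TBXAS1 and PTGES rose, none of the 9 genes fell, and ALOX5AP, LTA4H, PTGS2 and PTGIS did not pass the test. A gene was called by the thresholds of the study, a log2 fold change beyond 1 with an unadjusted edgeR p under 0.05. By this rule 5 of 9 members were higher, where 9.95% of the 14828 genes tested were higher and 1.52% lower. The groups did not overlap, with H24 higher, in 5 members (ALOX5, ALOX5AP, LTC4S, TBXAS1 and PTGES), against 12.8% of all genes, and with H24 lower in 1 member (PTGIS), against 7.8% of all genes. The median log2 fold change of the members was 1.80, and that of all genes tested was 0.008. After Benjamini-Hochberg adjustment over all genes, edgeR called 0 of the 9 members and 0 of all genes, of which 2055 had an unadjusted p under 0.05. DESeq2, which adjusts over the genes kept by its own filter on mean counts, called 879 genes higher and 75 lower. ALOX5, LTC4S, PTGES, PTGS1 and TBXAS1 were among the former. Without H24 replicate 3, edgeR called ALOX5, LTC4S, PTGES and PTGS1 by the unadjusted rule, and ALOX5 and LTC4S by the adjusted one.

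LTC4S, the leukotriene C4 synthase gene, changed most evenly. It measured 4.76, 3.36 and 2.34 FPKM in NC, and 21.9, 18.2 and 25.1 FPKM in H24. All 3 H24 pigs stood far above every NC pig, and their spread was small (21.7 ± 3.43 FPKM, SD, n = 3). The log2 fold change was 2.62 (SE 0.37), or 6.14-fold, with an unadjusted p of 0.000182 and an adjusted p of 0.129. Over the 14 alternative fits the log2 fold change lay between 2.37 and 2.88, the gene was called in all of them, and the adjusted p ran from 9.69e-10 (DESeq2) to 0.465 (without NC replicate 3). LTC4S (chr2:78799449-78802256, minus strand) overlaps the glycosyltransferase gene MGAT4B on the opposite strand by 521 bases, and the sources used here do not say whether reads were counted by strand. MGAT4B measured 11.4 to 12.5 FPKM in NC and 16.2 to 29.0 FPKM in H24. Its log2 fold change was 0.83 (SE 0.27, adjusted p = 0.258), which was not called and was smaller than that of LTC4S. How many LTC4S counts came from reads of the overlapping bases was not tested.

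ALOX5 had the largest fitted change of the 9 genes. It was at 0.665, 0.787 and 0.493 FPKM in NC and at 7.81, 3.05 and 16.8 FPKM in H24. The 3 H24 libraries were all above NC but differed from each other more than those of LTC4S did (SD 6.97 against 3.43 FPKM). The log2 fold change was 3.79 (SE 0.65), or 13.9-fold, with an unadjusted p of 0.000598 and an adjusted p of 0.132. Without H24 replicate 3, the highest library, it was 3.01 and still called, and over the 14 alternatives it ran from 2.39 to 4.20 with the call kept in each.

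The other members of the leukotriene branch, ALOX5AP and LTA4H, were not called. ALOX5AP, whose product presents arachidonic acid to 5-lipoxygenase, was at 11, 12 and 53 FPKM in H24 against 8.06 to 10.7 FPKM in NC. Its H24 pigs lay above NC, in H24 replicate 1 barely so, and its log2 fold change of 1.38 (SE 0.64, adjusted p = 0.404) was not called. Without H24 replicate 3 the ALOX5AP value was only 0.23, and without H24 replicate 1 or 2, the lower libraries, it was called at 1.75 and 1.71. LTA4H, the gene for leukotriene A4 hydrolase, was at 21.9, 17.5 and 34.2 FPKM in H24, on both sides of its NC range. Its log2 fold change was -0.08 (SE 0.29, adjusted p = 0.928), and its groups overlapped.

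In the prostanoid branch, the constitutive cyclooxygenase gene PTGS1 (chr1:262456220-262484227, plus strand) was at 1.65, 3.10 and 1.39 FPKM in NC and at 7.44, 2.88 and 11.6 FPKM in H24. H24 replicate 2 lay below NC replicate 2, so the groups overlapped. PTGS1 rose by a log2 fold change of 1.80 (SE 0.56), or 3.47-fold (unadjusted p = 0.0146, adjusted p = 0.239). The call ended without NC replicate 1 (1.65) or NC replicate 3 (1.56). The inducible cyclooxygenase gene PTGS2 (chr9:127848603-127859287, minus strand) was at 1.48, 4.66 and 1.58 FPKM in NC and at 7.90, 3.95 and 2.87 FPKM in H24. Its groups overlapped as well, and the log2 fold change of 0.88 (SE 0.58, adjusted p = 0.555) was not called, although it was 1.67 and called without NC replicate 2, the highest NC library.

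Of the 3 terminal prostanoid synthases, PTGES and TBXAS1 rose and PTGIS did not pass the test. PTGES (chr1:269911793-269924481, minus strand), the inducible prostaglandin E synthase gene, was at 4.57, 3.04 and 1.62 FPKM in NC and at 6.65, 6.47 and 33.3 FPKM in H24. All H24 pigs were above all NC pigs, and replicate 3 stood far above the other two. PTGES rose by a log2 fold change of 2.31 (SE 0.76, 4.98-fold, unadjusted p = 0.0189, adjusted p = 0.262). It was 1.07 and called without H24 replicate 3, and it lost the call without NC replicate 2 (2.33) or NC replicate 3 (1.99). TBXAS1, the thromboxane synthase gene, was at 0.246, 0.186 and 0.254 FPKM in NC and at 0.353, 0.768 and 5.04 FPKM in H24. It rested on few counts, between 32 and 37 in NC and 52, 76 and 678 in H24. The log2 fold change of TBXAS1 was 3.13 (SE 1.02, 8.77-fold, unadjusted p = 0.0176, adjusted p = 0.257). Without H24 replicate 3 it was 1.27 and not called, and the call also ended without NC replicate 1 (3.17) or NC replicate 2 (3.03).

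PTGIS was lower in H24 without being called. It was at 112, 96.6 and 43.9 FPKM in H24, all below the lowest NC value of 130 FPKM. The log2 fold change was -0.76 (SE 0.37), that is 1.69-fold lower, with an unadjusted p of 0.076 and an adjusted p of 0.422. Without H24 replicate 3, where the smooth muscle sum was also lowest, it was -0.45, and it stayed negative and uncalled in all 14 alternatives. The smooth muscle sum was 7570, 11100 and 1670 FPKM in the 3 H24 libraries and 11100 to 13000 FPKM in NC. The 6 smooth muscle markers had a median log2 fold change of -0.74 in H24/NC, with 0 called. The endothelial sum was 58.7 to 110 FPKM in H24 and 56.2 to 151 FPKM in NC. What part these cell types had in the H24 values of PTGIS was not tested.

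**Figure D2:**
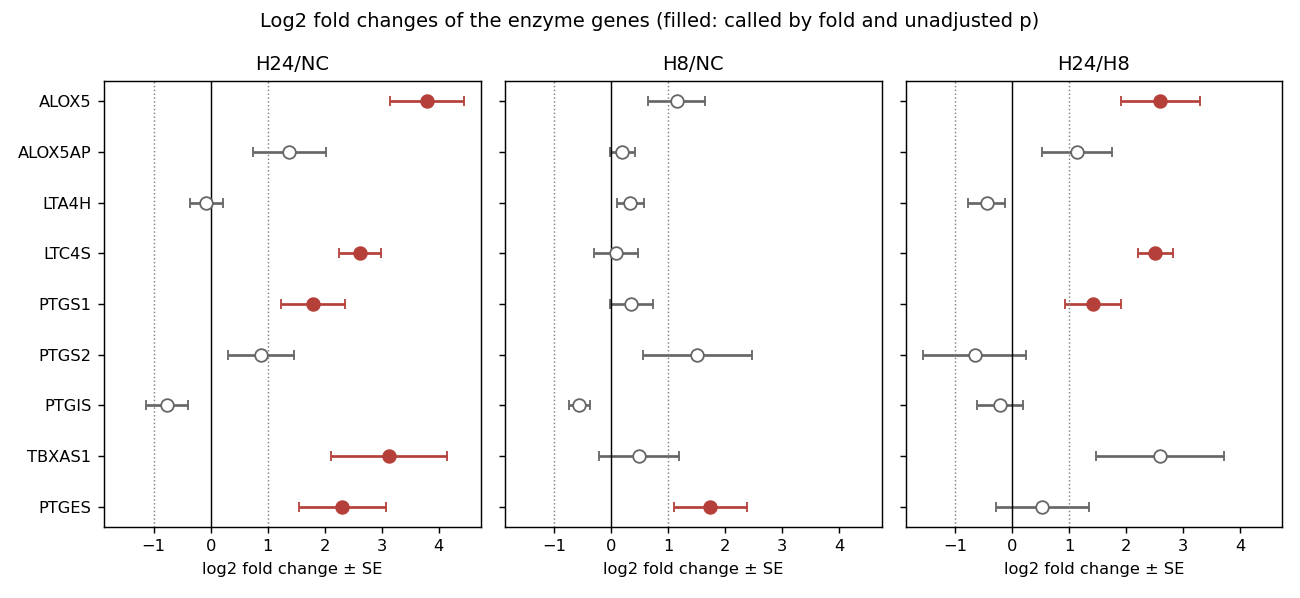
Log2 fold change with its standard error (edgeR) for each enzyme gene in H24/NC, H8/NC and H24/H8, where filled points passed the fold and unadjusted p thresholds and dotted lines mark a log2 fold change of 1 in either direction. Filled points number 5 in H24/NC, 1 in H8/NC (PTGES) and 3 in H24/H8 (ALOX5, LTC4S and PTGS1).

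The H8/NC comparison covers the early, hypercholesterolemic stage. PTGES was the only member called, and prostacyclin synthase was lower in all 3 H8 pigs. The rule called 1 of 9 members higher and 0 lower, where 5.11% of the 14336 genes tested were higher and 2.27% lower. The groups were apart with H8 higher in 1 member (PTGES), against 6.91% of all genes, and with H8 lower in 1 member (PTGIS), against 15.9% of all genes. The median log2 fold change was 0.35 over the members and 0.015 over all genes. No member passed the adjusted threshold with edgeR (2 had an unadjusted p under 0.05) or with DESeq2, and over all genes edgeR called 2 higher and 2 lower.

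PTGES was at 4.64, 16.9 and 5.37 FPKM in H8 and at 1.62 to 4.57 FPKM in NC. Its lowest H8 pig was only just above the highest NC pig, and H8 replicate 2 was far above both. PTGES rose by a log2 fold change of 1.73 (SE 0.64, 3.33-fold, unadjusted p = 0.028, adjusted p = 0.281). Without H8 replicate 2 the value was 0.77 and the call was lost, as it was without NC replicate 2 (1.75) or NC replicate 3 (1.43). The same library, H8 replicate 2, held the highest PTGS2 of all 9 libraries: PTGS2 was at 4.73, 13.7 and 0.829 FPKM in H8. The H8 values of PTGS2 thus spanned the whole NC range, and its log2 fold change of 1.51 (SE 0.95, adjusted p = 0.5) was not called, whereas it was called at 2.04 without H8 replicate 3, the lowest library.

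PTGIS was at 90.6, 63.3 and 108 FPKM in H8, below all 3 NC libraries. Its log2 fold change was -0.56 (SE 0.19, 1.47-fold lower) with an unadjusted p of 0.0208 and an adjusted p of 0.264, short of the fold threshold. The smooth muscle sum did not separate these groups (9590 to 12900 FPKM in H8, 11100 to 13000 FPKM in NC), and the endothelial sum was 35.3 to 73.8 FPKM in H8 and 56.2 to 151 FPKM in NC. The part that these cell types had in the lower PTGIS was not tested.

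None of the 4 leukotriene genes was called at 8 weeks. LTC4S was at 3.35, 2.61 and 4.16 FPKM in H8, inside its NC range, with a log2 fold change of 0.08 (SE 0.39, adjusted p = 0.947). ALOX5 was at 1.69, 0.497 and 1.86 FPKM, 2 pigs above NC and 1 within it. Its log2 fold change of 1.15 (SE 0.50, unadjusted p = 0.0529, adjusted p = 0.344) just missed the threshold, and it was called at 1.51 without H8 replicate 2. ALOX5AP, LTA4H, PTGS1 and TBXAS1 had log2 fold changes between 0.19 and 0.49, none of them called. TBXAS1 in H8 replicate 2 rested on 11 counts, the fewest of any member in any library.

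The H24/H8 comparison sets the later beside the earlier stage on the same diet. With 24 against 8 weeks of feeding, lesion stage, time on the diet and age cannot be told apart in it. This comparison shares the H24 libraries with H24/NC and the H8 libraries with H8/NC, so its values are not independent of those above. ALOX5, LTC4S and PTGS1 were higher, and 0 members were lower. That makes 3 of 9 members, where 7.22% of the 14788 genes tested were higher and 3.05% lower. H24 lay wholly above H8 in 3 members (ALOX5, LTC4S and ALOX5AP), against 15.5% of all genes, and wholly below it in 0, against 6.31%. The median log2 fold change was 1.14 over the members and 0.044 over all genes. With adjustment edgeR called 0 members, 3 of which had an unadjusted p under 0.05, and DESeq2 called ALOX5 and LTC4S.

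LTC4S had the smallest p of the members, with a log2 fold change of 2.51 (SE 0.31, 5.71-fold, unadjusted p = 7.29e-05, adjusted p = 0.215). Its values over the 14 alternatives were 2.38 to 2.67, all called. For ALOX5 the log2 fold change was 2.6 (SE 0.70, 6.07-fold, unadjusted p = 0.00715, adjusted p = 0.336), also called in all 14 alternatives, with 1.84 as the lowest value (without H24 replicate 3). PTGS1 was higher by 1.41 (SE 0.49, 2.66-fold, unadjusted p = 0.0224, adjusted p = 0.341). It lost the call without H8 replicate 2 (1.27), H8 replicate 3 (1.33), H24 replicate 1 (1.41) or H24 replicate 3 (0.92).

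TBXAS1 differed by 2.59 (SE 1.12, unadjusted p = 0.0524, adjusted p = 0.367) and was not called, and ALOX5AP by 1.14 (SE 0.61, adjusted p = 0.429). Without H24 replicate 1 both were called, TBXAS1 at 3.09 and ALOX5AP at 1.5, and without H24 replicate 3 TBXAS1 was at 0.78 and ALOX5AP at 0.03. PTGES, PTGIS, LTA4H and PTGS2 had log2 fold changes between -0.66 and 0.53 with wide overlap of the groups. PTGES was 0.53 with all libraries and -0.68 without H24 replicate 3, so its order between the 2 stages turned on that pig.

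Because FPKM is scaled to length, the 9 levels can be set beside each other within a library. Their sum was 171 to 208 FPKM in NC, 131 to 161 FPKM in H8 and 161 to 226 FPKM in H24. PTGIS made up 74.6%, 73.5% and 76.1% of it in NC, 56.3%, 48.3% and 68.8% in H8, and 56.8%, 59.8% and 19.4% in H24. The PTGIS share was thus lower in each of the 6 libraries on the high-fat diet than in any NC library. LTC4S made up 1.37% to 2.29% of the sum in NC and 1.99% to 2.66% in H8. In the 3 H24 libraries its share was 11%, 11.3% and 11%, nearly equal although H24 replicate 3 differed so much in the other genes. ALOX5AP (23.5%) and PTGES (14.7%) had their largest shares in H24 replicate 3.

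**Figure D3:**
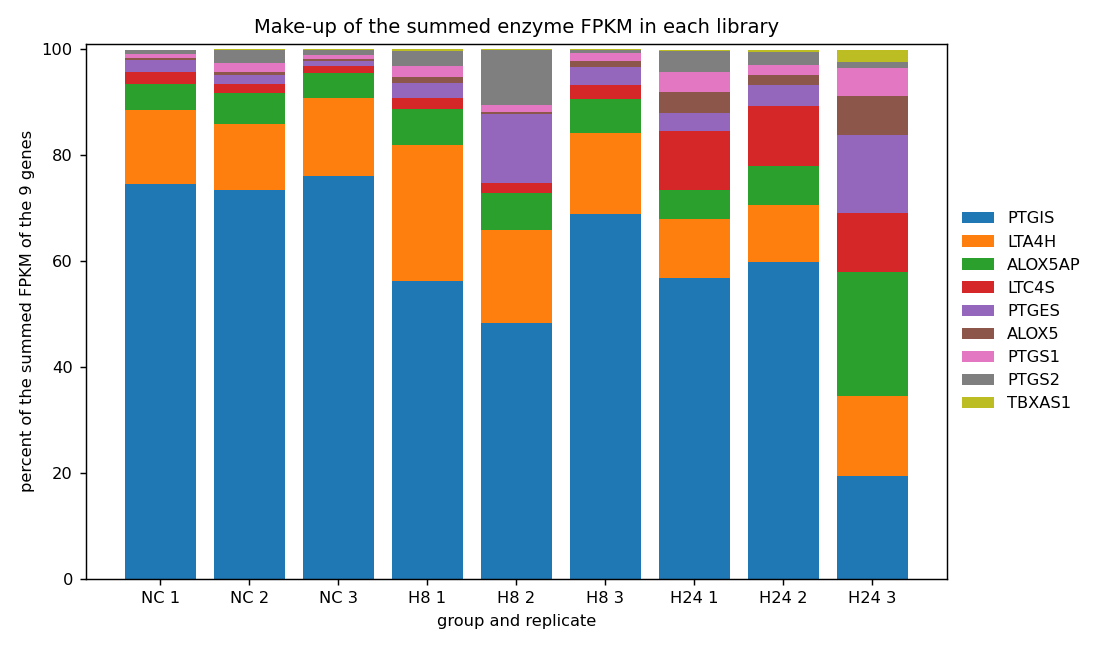
Percent of the summed FPKM of the 9 genes that each gene makes up, stacked for each of the 9 libraries. The PTGIS bar spans 73.5% to 76.1% in NC, 48.3% to 68.8% in H8 and 19.4% to 59.8% in H24, and the LTC4S bar is 11% to 11.3% in H24.

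Ratios between members that share a substrate or a step were compared with exact two-sided permutation tests on log2(FPKM + 0.1). With 3 libraries against 3 the smallest p these tests can give is 0.1, so none of the 15 tests (5 ratios in 3 comparisons) could pass 0.05, and the smallest adjusted p was 0.214. LTC4S to LTA4H, the ratio of the enzymes that compete for leukotriene A4, was 0.163, 0.151 and 0.0928 in NC, 0.0813, 0.113 and 0.174 in H8, and 1, 1.04 and 0.734 in H24. The H24 pigs thus carried nearly as much LTC4S as LTA4H mRNA, and every other pig carried at most 0.174 times as much. The ratio was 6.78-fold higher in H24 than in NC (log2 difference 2.76, exact p = 0.1) and 7.62-fold higher than in H8 (2.93, exact p = 0.1). ALOX5 to PTGS1, which sets 5-lipoxygenase beside the constitutive cyclooxygenase, was 0.254 to 0.403 in NC, 0.286 to 0.835 in H8 and 1.05 to 1.45 in H24. H24 again lay above both other groups, 3.21-fold over NC (1.68, exact p = 0.1) and 2.22-fold over H8 (1.15, exact p = 0.1). This ratio leaves out PTGS2, with means of 2.57, 6.43 and 4.91 FPKM in NC, H8 and H24, so it does not weigh the 2 branches as wholes.

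The other terminal synthases stood higher relative to prostacyclin synthase in all H24 pigs than in any NC pig. PTGIS exceeded TBXAS1 631, 716 and 512 times in NC, 189, 885 and 307 times in H8, and 317, 126 and 8.71 times in H24. The H8 libraries lay on both sides of NC, whereas H24 lay wholly below. The log2 difference of TBXAS1 to PTGIS in H24/NC was 2.78 (6.89-fold, exact p = 0.1), and 1.36 without H24 replicate 3. PTGIS exceeded PTGES 33.9, 44 and 80.3 times in NC, 19.5, 3.74 and 20.0 times in H8, and 16.8, 14.9 and 1.32 times in H24. All 6 high-fat libraries lay on the same side of all NC libraries, with log2 differences of 2.09 in H8/NC (exact p = 0.1, and 1.29 without H8 replicate 2) and 2.79 in H24/NC (exact p = 0.1, and 1.61 without H24 replicate 3). PTGS2 to PTGS1 overlapped in every comparison and spread widely, from 0.248 in H24 replicate 3 to 7.91 in H8 replicate 2.

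**Figure D4:**
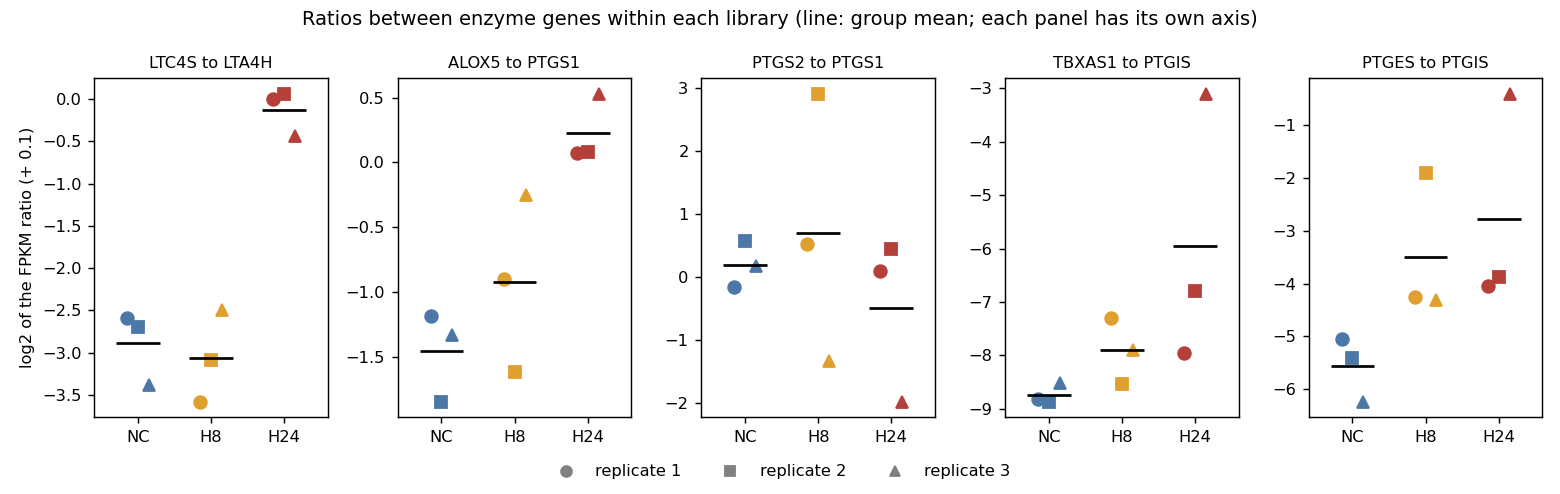
Log2 ratio of FPKM (+ 0.1) between pairs of enzyme genes in each library of NC, H8 and H24, with a symbol per replicate, a line at the group mean and a separate axis per panel. For LTC4S to LTA4H the 3 H24 libraries lie near 0 (group mean -0.13) and the NC and H8 means are -2.89 and -3.06, whereas PTGS2 to PTGS1 overlaps between all groups.

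Leukocyte markers moved with several of these genes. In bulk tissue, more cells of a type and more RNA per cell cannot be told apart. The 8 myeloid markers (CD68, CD14, CSF1R, TYROBP, AIF1, ITGAM, CD163 and MSR1) summed to 20.1 to 24.9 FPKM in NC, to 122, 21.6 and 66.7 FPKM in H8, and to 223, 137 and 1450 FPKM in H24. All 8 were called higher in H24/NC, with or without H24 replicate 3, and 5 of 8 in H8/NC. In H24/H8 all 8 were called, but 2 of 8 without H24 replicate 3, and 1 of 8 without H8 replicate 2 or without H8 replicate 3. Of all genes, 9.95% were called higher in H24/NC, 5.11% in H8/NC and 7.22% in H24/H8, and 2.27% were called lower in H8/NC. The mast cell markers (4 of 5 matched, with KIT, MS4A2, HDC and FCER1A present) summed to 0.697 to 1.92 FPKM in NC, 0.814 to 2.11 FPKM in H8 and 4.00 to 12.3 FPKM in H24, and 3 of 4 were called higher in H24/NC. The neutrophil sum ran from 0.445 to 0.482 FPKM in NC, from 2.21 to 4.34 FPKM in H8 and from 4.86 to 57.2 FPKM in H24. Nearly all of it in H8 was CSF3R (called higher in H8/NC), with S100A8 and MPO at 0 in every H8 library, and MPO was at 0 in every library but H24 replicate 3. The T cell sum was 0.156 to 0.341 FPKM in NC, 0.6 to 0.8 FPKM in H8 and 2.93 to 16.9 FPKM in H24. The B cell sum was 5.07 to 5.73 FPKM in NC, 1.34 to 3.67 FPKM in H8 and 9.56 to 11.5 FPKM in H24, most of it CD79A. In H24/NC CD79A was wholly higher (10.1 against 5.1 FPKM) and CD79B was lower with overlap (0.0691 against 0.287 FPKM), neither called. The platelet sum (4 of 5 markers matched, without PF4) was 11.7 to 13.7 FPKM in NC, 6.28 to 10.3 FPKM in H8 and 9.26 to 11.6 FPKM in H24. Most of it was ITGA2B, and PPBP was at no more than 0.112 FPKM in any library. Fibroblast markers summed to 1410 to 1650 FPKM in NC, 2220 to 3460 FPKM in H8 (highest in H8 replicate 2, as PTGES was among the H8 pigs) and 1970 to 2000 FPKM in H24, with 2 of 5 called higher in H8/NC. The adipocyte sum was 89.7 to 157 FPKM in NC, 49.1 to 140 FPKM in H8 and 57.2 to 106 FPKM in H24, most of it FABP4, which was not called in any comparison. In H8/NC 3 of the 4 adipocyte markers tested were called lower (ADIPOQ, PLIN1 and CIDEC), with ADIPOQ, which defines fat cells, at 4.44 to 14.6 FPKM in NC and 0.0789 to 0.106 FPKM in H8. In H24/NC 1 of 5 was called, LEP, and it was higher.

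The enzyme genes did not all follow the myeloid sum. H8 replicate 1 and H24 replicate 2 had similar sums (122 and 137 FPKM) but LTC4S levels of 3.35 and 18.2 FPKM, with ALOX5 at 1.69 and 3.05 FPKM and PTGS1 at 3.24 and 2.88 FPKM. Among the H24 pigs the myeloid sum spanned 137 to 1450 FPKM and LTC4S only 18.2 to 25.1 FPKM. ALOX5, PTGS1, ALOX5AP, PTGES, TBXAS1 and, by a small margin, LTC4S were each highest in H24 replicate 3, where the myeloid sum was highest. H8 replicate 2, whose myeloid sum of 21.6 FPKM was inside the NC range, also had ALOX5 (0.497 FPKM) inside its NC range, yet it had the highest PTGES of the NC and H8 libraries (16.9 FPKM). The part of these cell types in the changes of the enzymes was not tested.

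**Figure D5:**
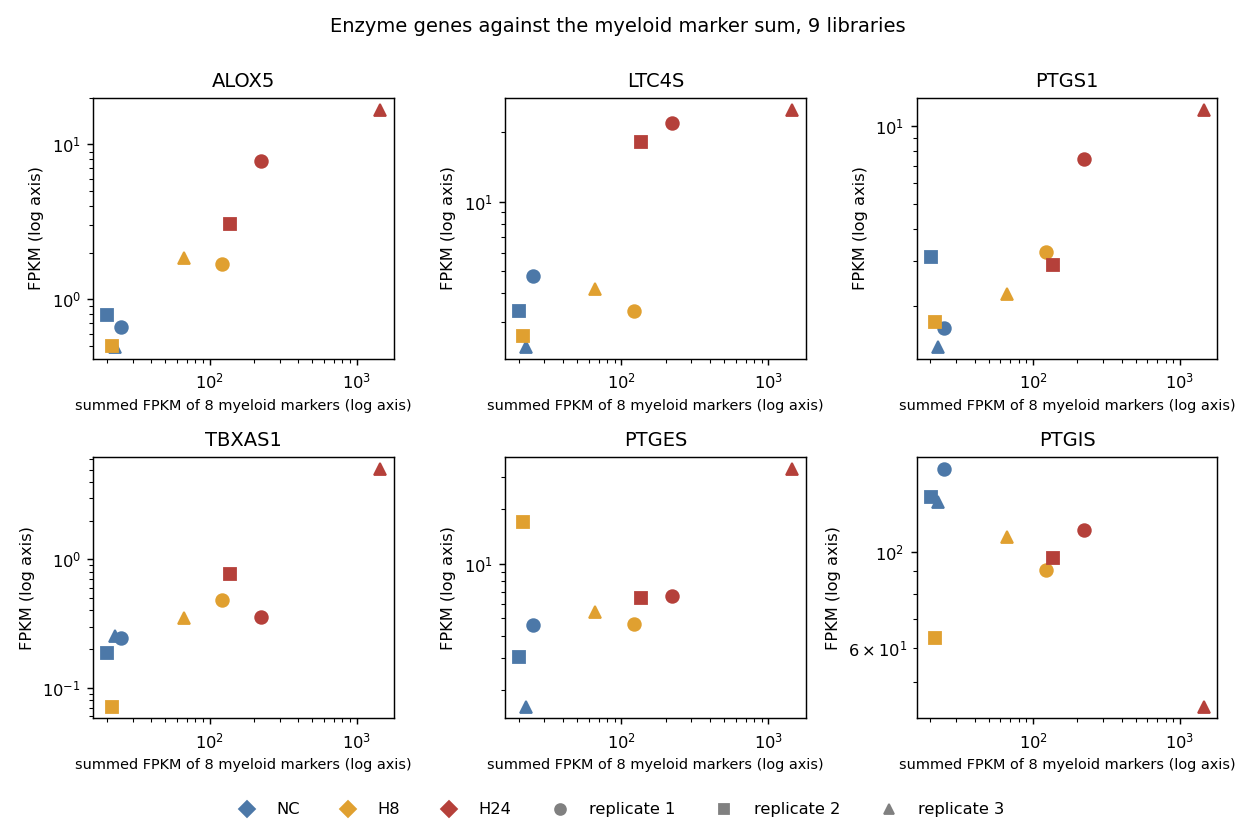
FPKM of 6 enzyme genes against the summed FPKM of 8 myeloid markers in the 9 libraries, on log axes, coloured by group with a symbol per replicate. H8 replicate 1 and H24 replicate 2 lie at nearly the same myeloid sum (122 and 137 FPKM) with LTC4S at 3.35 and 18.2 FPKM, and PTGIS is lowest (43.9 FPKM) at the highest sum.

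The rest of the pathway was read from lists of genes for arachidonate release, other eicosanoid synthesis, receptors, and transport or inactivation, of which 51 genes had an entry. In H24/NC 8 of the 43 tested were called higher and 0 lower (9.95% and 1.52% of all genes), with a median log2 fold change of 0.33. Of these 8, PLA2G2D, HPGDS, DPEP1 and PTGDR2 had an NC mean under 0.1 FPKM and entered the test through their H24 level, so 4 of the 8 could only be called higher. H24 lay wholly above NC in 7 of the 43 tested and wholly below it in 6, against 12.8% and 7.8% of all genes tested. In H8/NC 2 of 36 were higher and 1 lower (5.11% and 2.27% of all genes, median -0.01), counts close to those shares. The 1 called lower, ALOX15B, had an H8 mean under 0.1 FPKM and entered the test through its NC level, so it could only be called lower. In H24/H8 6 of 43 were higher and 1 lower (7.22% and 3.05% of all genes, median 0.41), and 2 of the 6, PLA2G2D and ALOX15B, had an H8 mean under 0.1 FPKM. With adjustment over all genes edgeR called none of them, although 9, 7 and 10 had an unadjusted p under 0.05 in H24/NC, H8/NC and H24/H8. DESeq2 with its own adjustment called 4, 1 and 2.

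Of the release genes, 3 of 10 tested were called in H24/NC, against 9.95% of all genes called higher. H24 lay wholly above NC in 3 release genes and wholly below it in 2, against 12.8% and 7.8% of all genes. The 2 lower genes were MGLL (77.9 against 129 FPKM, log2 fold change -0.74, SE 0.32, adjusted p = 0.38) and PLA2G4B (7.77 against 12.2 FPKM, -0.67, SE 0.37, adjusted p = 0.487), neither called. PLA2G4B also lay wholly lower in H8/NC (-0.91, SE 0.24, adjusted p = 0.206), short of the fold threshold. DAGLA and DAGLB, the diacylglycerol lipases that feed arachidonate release through 2-arachidonoylglycerol, rose. DAGLA went from 0.167 to 0.469 FPKM in NC to 0.536, 1.66 and 2.89 FPKM in H24 (log2 fold change 2.39, SE 0.69, adjusted p = 0.206) and was already called in H8/NC (1.17, SE 0.41, adjusted p = 0.271). DAGLA was at 1.77 in H24/NC without H24 replicate 3 and still called. The H8/NC call of DAGLA ended without NC replicate 2, NC replicate 3 or H8 replicate 1. DAGLB was at 3.82 to 6.64 FPKM in NC and at 9.32, 7.35 and 29.1 FPKM in H24 (1.57, SE 0.56, adjusted p = 0.292), and was called in H24/H8 as well (1.46, SE 0.54, adjusted p = 0.341). DAGLB was at 0.69 in H24/NC and 0.61 in H24/H8 without H24 replicate 3, not called in either, and its calls also ended without NC replicate 1 or 3 in H24/NC, and in H24/H8 when any single H8 replicate was left out. The secreted phospholipase gene PLA2G2D was called in both too, but at levels below 0.1 FPKM in NC and at 0.169, 0.101 and 2.21 FPKM in H24. PLA2G2D fell under the filter and was not tested without H24 replicate 3, it lost its calls without NC or H8 replicate 2 or 3, and neither DESeq2 nor limma called it. PLA2G4A, the cytosolic phospholipase that supplies most arachidonic acid for these enzymes, was at 3.81 to 4.00 FPKM in NC and at 2.84 to 6.38 FPKM in H24, with a log2 fold change of 0.27 (SE 0.32, adjusted p = 0.764).

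Among the other synthesis genes, 2 of 13 tested were called in H24/NC, HPGDS and DPEP1, both with an NC mean under 0.1 FPKM, against 9.95% of all genes called higher. HPGDS, the hematopoietic prostaglandin D synthase, was at 0.148, 0.0412 and 0.0282 FPKM in NC and at 0.284, 0.174 and 1.56 FPKM in H24 (log2 fold change 2.98, SE 1.13, adjusted p = 0.319). HPGDS was at 1.46 and not called without H24 replicate 3, and its call also ended without NC replicate 2 or NC replicate 3. DPEP1, a dipeptidase that converts leukotriene D4 to E4, was at 0 in the NC libraries and had 25, 15 and 37 counts in H8 and 36, 9 and 213 counts in H24. Its H24 mean was at least 32.2-fold higher than NC when 3 counts in each NC library are taken as the floor, and at least 8.56-fold higher without H24 replicate 3, when DPEP1 fell under the filter and was not tested. The H8 and H24 counts of DPEP1 overlapped. ALOX15B, a 15-lipoxygenase gene, was at 0.36 to 1.25 FPKM in NC, 0.0329 to 0.0722 FPKM in H8 and 0.14 to 0.769 FPKM in H24. It was called lower in H8/NC (-3.49, SE 0.70, adjusted p = 0.18) and higher in H24/H8 (3.10, SE 0.87, adjusted p = 0.336). The H8 mean of ALOX15B, 0.0556 FPKM, was under the filter, so it could only be called in these directions. GGT5, a gamma-glutamyl transferase that turns leukotriene C4 into D4, was at 1.73 to 2.14 FPKM in H8 and 4.35 to 4.67 FPKM in H24. In H24/H8 it passed by a small margin (1.01, SE 0.21, adjusted p = 0.336). It did not pass without H8 replicate 2 or 3 or H24 replicate 2 or 3 (0.99 without the last). GGT5 was at 2.62 to 5.95 FPKM in NC, wholly above H8 (H8/NC -0.92, SE 0.31, adjusted p = 0.264, not called). The NC range held all H24 values (H24/NC 0.11, SE 0.34, adjusted p = 0.92).

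Receptors of both branches were also among the calls. In H24/NC 2 of 8 prostanoid receptor genes tested and 1 of 5 leukotriene receptor genes were called higher, against 9.95% of all genes. CYSLTR1, a receptor for the cysteinyl leukotrienes, rose in H24/NC from 0.225 to 0.334 FPKM to 1.17, 0.316 and 1.94 FPKM (log2 fold change 2.05, SE 0.67, adjusted p = 0.257), with H24 replicate 2 inside the NC range, 1.41 without H24 replicate 3, and the call lost without NC replicate 2 or 3. CYSLTR1 was the only leukotriene receptor gene called in any comparison. PTGER4, a prostaglandin E2 receptor, rose in H24/NC (1.63, SE 0.58, adjusted p = 0.292) and H24/H8 (1.60, SE 0.62, adjusted p = 0.342). It was at 0.809 to 1.58 FPKM in NC and at 2.66, 1.72 and 7.30 FPKM in H24, and without H24 replicate 3 it was at 0.79 in both comparisons and not called. PTGER4 was also not called without NC replicate 1 or 3 in H24/NC, or without H8 replicate 1 or 3 in H24/H8. PTGDR2, a prostaglandin D2 receptor of T helper cells, eosinophils and basophils, was at 0 in 2 NC libraries and at 0.0944, 0.701 and 0.788 FPKM in H24, and it was called higher (adjusted p = 0.258). PTGER2, another E2 receptor gene, was at 0.356 to 0.42 FPKM in NC and at 0.445, 1.45 and 0.723 FPKM in H8, called higher in H8/NC (1.36, SE 0.47, adjusted p = 0.269) but not without H8 replicate 2, NC replicate 2 or NC replicate 3.

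PTGER3, an E2 receptor that contracts smooth muscle, was the only list gene called lower in H24/H8. It was at 19.5, 32.7 and 22.1 FPKM in H8 and at 10.2, 12.4 and 2.69 FPKM in H24, with a log2 fold change of -1.74 (SE 0.58, adjusted p = 0.341), and was -1.32 without H24 replicate 3. It lost the call in H24/H8 without H8 replicate 2. In NC PTGER3 was at 16.1 to 18.9 FPKM, wholly below H8 and wholly above H24. Neither difference was called (H8/NC 0.64, SE 0.25, adjusted p = 0.302, and H24/NC -1.09, SE 0.51, adjusted p = 0.41). The receptors of the vascular prostanoids were not called in any comparison: PTGIR, for prostacyclin, was at 0.57 to 1.06 FPKM in NC and 0.766 to 1.77 FPKM in H24 (0.72, SE 0.47, adjusted p = 0.555), and TBXA2R, for thromboxane, at 2.74 to 5.40 and 3.14 to 6.15 FPKM (0.15, SE 0.38, adjusted p = 0.897). Of the transport and inactivation genes, the prostaglandin transporter SLCO2A1 was called in H24/H8 (1.32, SE 0.47, adjusted p = 0.341), at 4.10 to 9.78 FPKM in H8 and 13.7 to 27.1 FPKM in H24, and not without H8 replicate 1, H8 replicate 3 or H24 replicate 2.

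For each member but PTGS2, the genes with the most similar pattern over the 9 libraries were found by Pearson's r of log2(FPKM + 0.1), as a description across libraries that share groups, with no test. The gene nearest to ALOX5 was the chemokine receptor CXCR6 (r = 0.995, and 0.991 without H24 replicate 3), followed by the kinase JAK3 and the cholesterol transporter ABCG1. Nearest to LTC4S were S100A4 (r = 0.981, and 0.975 without that library), MYBPH and SLC4A11. S100A4 had means of 4.02, 5.05 and 79.2 FPKM in NC, H8 and H24, the late step that LTC4S also showed. PTGS1 lay closest to PIK3CG (r = 0.973), a phosphoinositide kinase of leukocytes. ALOX5AP lay closest to DGKZ (r = 0.993), but at 0.865 without H24 replicate 3. TBXAS1 was nearest to STARD3 (r = 0.986, and 0.952 without it), PTGES to RAB3IL1 (r = 0.975), PTGIS to POLDIP3 (r = 0.985) and LTA4H to FCHSD2 (r = 0.992). Between members, ALOX5 ran closest to PTGS1 (r = 0.94) and LTC4S (r = 0.91), TBXAS1 to ALOX5AP (r = 0.93), and PTGIS ran opposite to PTGES (r = -0.89), over the same 9 libraries. These member values are not given without H24 replicate 3. In that library ALOX5AP (53.0 FPKM), TBXAS1 (5.04 FPKM) and PTGES (33.3 FPKM) were highest and PTGIS (43.9 FPKM) was lowest.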

How the data were processed

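Reads of the 9 libraries were mapped by the authors with HISAT 2.0 to Sscrofa11.1 and assembled with StringTie 1.3.0. The submitters' processing notes also name Bowtie 0.12.2 and a mouse build, whose roles are not given, and the extraction text of the labels speaks of an adipose type. Library strandedness and the annotation release are not given in the sources used here. The authors deposited FPKM values and estimated counts (expected counts, whole numbers, not normalized; their derivation is not given in the sources used here). The 3 pigs of a group were taken as replicates as labelled, and p-values measure the spread between them.

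The quasi-likelihood test of edgeR 4.0.16 (R 4.3.3, TMM scaling, two-sided) was run on the counts of the 6 libraries of each comparison, with genes of mean FPKM of at least 0.1. All 9 members passed this filter in each comparison. Calls used a log2 fold change beyond 1 and an unadjusted p under 0.05, and p-values adjusted over all genes (Benjamini-Hochberg) stand beside them. DESeq2 1.42.0 and limma 3.58.1 on log2(FPKM + 0.1) or log2(FPKM + 1) served as alternatives, with RLE size factors, other filters, a fit of all 9 libraries together, a replicate block, and each library left out in turn. The fit was tested on simulated data. Exact permutation tests used scipy 1.17.1 in Python 3.11.15. Named were all members, at most 3 called genes of each pathway list and comparison (those with the smallest p; a few uncalled list genes were named after their values were seen), and the 3 genes of mean FPKM of at least 1 most like each member (for PTGS2 they are not reported here). Members and lists were chosen with earlier results of these data known. Gene names were those of the table. Intervals and the floor of 3 counts cover counting error only. No pair of libraries within a group agreed within sampling noise (chi-square per degree of freedom at least 183).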

Additional observations from a re-analysis of the deposited data

How the results depend on the processing

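The rises of ALOX5 and LTC4S in H24/NC and H24/H8 passed the unadjusted rule in all 14 alternatives run for each. With 3 pigs a group and a variable H24 group, other calls depended on the choices made, and the cause was not tested. In H24/NC the count of members called was 5, and it was 0 with the adjusted threshold, 2 (ALOX5 and LTC4S) with a replicate block, and 3 to 6 with 1 library left out, when 3 to 5 of the first 5 calls were kept and ALOX5AP or PTGS2 could join them. The numbers do not pair the pigs: the correlation of same-numbered deviations ran from -0.051 to 0.076, so the replicate block is given only here. The count of pathway list genes called in H24/NC was 8, and it was 0 with adjustment, 3 at a mean FPKM of at least 1 (all among the 8), 5 with the replicate block (4 of the 8), 2 with limma on log2(FPKM + 1) (1 of the 8, and 1 gene called lower), and 3 to 14 with 1 library left out (3 to 8 of the 8). In H8/NC the count of 1 member became 0 with adjustment, 2 with DESeq2, 2 with no filter, 0 with all 9 libraries in one fit and 0 to 2 with 1 library left out. The count of 3 list genes became 0 with adjustment, 0 at a mean FPKM of at least 1 and 0 with limma on log2(FPKM + 1). In H24/H8 the counts of 3 members and 7 list genes became 0 and 0 with adjustment, and that of the list genes 4 with limma on log2(FPKM + 1) and 2 to 9 with 1 library left out (2 to 7 of the 7).

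Values near 0 changed sign. LTC4S in H8/NC was -0.01 and -0.02 with limma on log2(FPKM + 0.1) and log2(FPKM + 1), and PTGS2 in H24/H8 was 0.21 and 0.05 with these and 0.12 with the replicate block. With 1 library left out, the log2 fold change ran from -0.40 to 0.10 for LTA4H in H24/NC, from -0.14 to 0.35 for LTC4S and -0.03 to 0.92 for TBXAS1 in H8/NC, and in H24/H8 from -1.19 to 0.68 for PTGS2, -0.44 to 0.10 for PTGIS and -0.68 to 1.49 for PTGES. The log2 ratio differences ran from -1.14 to 0.07 for PTGS2 to PTGS1 in H24/NC, from -0.60 to 1.52 for the same ratio and from -0.45 to 0.09 for LTC4S to LTA4H in H8/NC, and from -0.48 to 1.5 for PTGES to PTGIS in H24/H8.

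Counts over all genes moved as well. Limma on log2(FPKM + 0.1) put the median log2 fold change of all genes at -0.12 in H8/NC, where edgeR had 0.015, and at 0.18 in H24/H8 (0.12 with a pseudocount of 1), where edgeR had 0.044. In H8/NC it called 454 genes higher and 505 lower where edgeR called 733 and 326. Limma on log2(FPKM + 1) called 714 higher and 141 lower in H24/NC (edgeR 1475 and 225), 202 and 141 in H8/NC, and 517 and 177 in H24/H8 (edgeR 1068 and 451). A mean FPKM of at least 1 left 141 lower in H24/NC, and 440 higher and 178 lower in H8/NC. Without H24 replicate 3, 946 genes were called higher in H24/NC and 547 in H24/H8. The H24/H8 genes called higher were 556 without H8 replicate 2 and 617 without H8 replicate 3, and those called lower 248 without H8 replicate 2 and 684 without H24 replicate 2. In H24/NC those called lower were 137 without NC replicate 1, 406 without H24 replicate 1 and 456 without H24 replicate 2. TBXAS1, with 11 to 73 counts in the NC and H8 libraries, was the member most limited by depth. No alternative choice of entry was run for the members, since each name had 1 entry.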
